A study of Mus musculus with 20 samples.

Results

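CHD4 is the ATPase of the nucleosome remodelling and deacetylase (NuRD) complex, which joins a chromatin remodelling motor to histone deacetylases and is best known for holding genes silent. The mouse oocyte pool around birth consists mostly of small, non-growing oocytes arrested in meiotic prophase. These cells already start to make the RNAs of the growing egg. What loss of Chd4 did to the RNA of such oocytes on postnatal day 1 (P1) was measured by RNA-seq in 4 libraries of non-growing oocytes from ovary, 2 of controls and 2 of conditional knockouts. The genes described are those with at least 1 TPM (transcripts scaled to the same total in every library and corrected for gene length) in at least 2 of these 4 libraries, which gave 14962 of the 53722 genes in the oocyte table. At that limit, 5033417F24Rik entered with a second-highest value of 1.0003 TPM and Pacsin3 stayed outside with 0.9999 TPM. Listed genes are called measured below only where they passed this filter. A listed gene not counted as measured may still have had low values.

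The controls had the genotype Chd4 f/+; Ddx4-Cre Tg/+ and the knockouts Chd4 f/-; Ddx4-Cre Tg/+, so both carried the Cre transgene and the controls were themselves heterozygous for the floxed allele. Ddx4 is a germ cell gene, and its Cre acts in germ cells before birth. The strain label joins FVB/NJ to C57BL/6 X 129S1/Sv as a mixed background. P5 non-growing oocytes of the same 2 genotypes (2 libraries each) were used as a second time point. At P10, control non-growing and growing oocytes with the genotype Chd4 f/f and no Cre (2 libraries each) served as a reference for oocyte growth. The P10 knockouts, Chd4 f/f; Gdf9-iCre Tg/+, with a Cre driven by an oocyte gene (2 libraries each of non-growing and growing oocytes), entered the estimate of the spread and the filter on low genes but no comparison. The labels do not say whether the 2 libraries of a group came from separate animals, so the p-values measure the spread between libraries, which may be technical.

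Depth, recovered from the TPM values and gene lengths, was 17740000 and 19690000 reads in the P1 controls and 21090000 and 26420000 in the knockouts. Over the genes described, log2(TPM + 1) correlated at 0.961 between the controls, at 0.915 between the knockouts and at 0.896 to 0.910 across genotypes. The first principal component held 51.3% of the variance and parted the genotypes, while the second held 33.2% and parted the 2 knockout libraries from each other. All 12 germ cell markers were measured, 10 did not pass the test between genotypes, and Gdf9 and Zp3 fell, with values given with their list. Dppa3, a maternal factor made from the germ cell stage on, had 42220 and 37270 TPM in the controls and 39450 and 39380 TPM in the knockouts, and Ddx4, a germ cell helicase, had 169 and 237 against 204 and 171 TPM. At P5 the 2 controls differed from each other in the genes called at P1: replicate 1 was above replicate 2 in 61.4% of the 176 that rose, 36.8% of the 171 that fell and 50.7% of the genes described, with Upp1 at 78.0 and 3.17 TPM.

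The targeted gene followed the labels. Chd4 (chr6:125095981-125130591, plus strand, GRCm38) had 24.7 and 31.2 TPM in the controls and 4.32 and 1.9 TPM in the knockouts. The groups did not overlap, so leaving out 1 library could not reverse the direction. The knockout mean was 8.99-fold lower (log2 fold change on the log2(TPM + 1) scale -2.87, SE 0.50, adjusted p = 0.0136). These are values for the whole gene, and which exons the floxed allele removes is not given in the sources used here. With 1 library less the direction held, but the adjusted p was 0.101 without control replicate 1, 0.122 without control replicate 2 and 0.091 without knockout replicate 2, and 0.0626 with a pseudocount of 0.1. Among the 14 of 15 NuRD genes that reached 1 TPM, Chd4 was the only one past the test, and the list's median log2 fold change was -0.07 (-0.24 to 0.13 with 1 library left out), against -0.03 over the genes described and 0 over all 20470 genes tested. The deacetylase gene Hdac2 had 49.0 and 57.7 TPM in controls and 90.5 and 65.1 in knockouts (adjusted p = 0.586). The histone chaperone gene Rbbp7 had 284 and 345 TPM against 267 and 286 (adjusted p = 0.921). Mta2, which encodes a scaffold of the complex, had 0.389 and 2.85 against 7.29 and 3.39 TPM (adjusted p = 0.490).

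Across the 20470 genes tested, 348 (1.70%) differed between knockout and control at P1 by limma with an adjusted p under 0.05. Of the genes described, 176 rose and 171 fell, against backgrounds of 0.860% higher and 0.840% lower among all genes tested. In each of the 176 and 171 genes the 2 knockout values lay on one side of the 2 control values, as they did in 47.5% of the genes described. The median log2 fold change was 2.33 among the genes that rose and -1.97 among those that fell, and 173 and 162 of them changed by more than 1 on that scale. Many sat at the floor of the other group: 107 of the 176 were under 1 TPM in both controls and 48 were listed at 0 there, while 109 of the 171 were under 1 TPM in both knockouts and 71 were listed at 0. Such genes passed the TPM filter through the group in which they are high, so their share says nothing about how often genes switch. Another 50 and 55 called genes had at least 1 TPM in all 4 libraries. The count of 348 was 71 without control replicate 1, 106 without control replicate 2, 187 without knockout replicate 1 and 608 with voom on recovered read counts, where 33.7% of the calls were higher in the knockout instead of 50.6%.

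**Figure D1:**
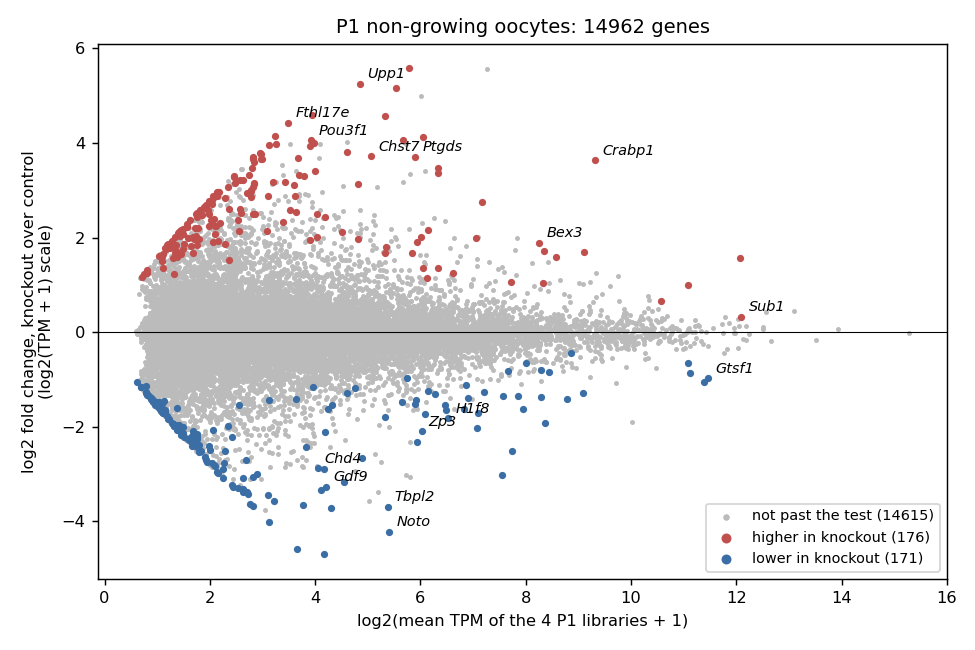
Each point is one of the 14962 genes described, with the log2 of the mean TPM of the 4 P1 libraries + 1 on the x axis and the log2 fold change of knockout over control on the y axis. Red points (176) and blue points (171) passed the test, and the named oocyte genes Noto, Tbpl2, Gdf9, H1f8 and Zp3 lie below 0 at middle levels.

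A homeobox gene and an oocyte-specific initiation factor were among the genes that fell most. Noto, a homeobox gene best known from the notochord, had 88.5 and 69.7 TPM in the controls and 2.02 and 5.01 TPM in the knockouts, a 22.5-fold lower mean (log2 fold change -4.22, SE 0.29, adjusted p = 0.000109). Tbpl2 encodes a TATA-binding protein relative that takes over transcription initiation in oocytes. It had 65.0 and 86.7 TPM in controls and 6.89 and 3.40 TPM in knockouts, a 14.7-fold lower mean (log2 fold change -3.69, SE 0.33, adjusted p = 0.000266). Tsga10ip had 31.9 and 39.1 TPM against 1.49 and 2.09 TPM, a 19.8-fold lower mean (log2 fold change -3.71, SE 0.27, adjusted p = 0.000109). In all 3 genes the controls were high in both libraries and the knockouts low in both, as the choice of genes required. These calls held without any one of the 4 P1 libraries, with adjusted p of at most 0.00854. With voom Noto and Tsga10ip also passed, while Tbpl2 had an adjusted p of 0.055.

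Secreted factors and zona pellucida proteins, which the oocyte sends to the cells around it and lays down as its coat, gave 2 falls and no rise among 8 of 11 listed genes. Among all genes tested, 0.840% fell and 0.860% rose. Gdf9, a growth factor that drives granulosa cells, had 27.6 and 37.4 TPM in the controls and 3.96 and 1.38 in the knockouts, a 12.2-fold lower mean (log2 fold change -3.27, SE 0.41, adjusted p = 0.00215). Zp3, which encodes the zona protein that forms filaments with ZP2, had 74.4 and 134.3 TPM against 29.9 and 17.1, a 4.44-fold lower mean (log2 fold change -2.09, SE 0.33, adjusted p = 0.00793). Gdf9 passed with any single library left out but had an adjusted p of 0.0593 with voom. For Zp3 it was 0.225 with voom, 0.0891 with control replicate 2 left out and 0.0628 with knockout replicate 2 left out. The other zona genes did not follow: Zp2 had 138.5 and 186.2 against 183.7 and 121.2 TPM with overlapping groups, and Zp1 had 12.9 and 12.6 against 39.1 and 18.8 TPM (adjusted p = 0.130). Bmp15, the X-linked partner of Gdf9, had 1.26 and 2.62 TPM in controls and 0 and 0.0295 in knockouts (adjusted p = 0.361). The list's median log2 fold change was -0.83, against -0.03 over the genes described. It includes Bmp15, which passed the TPM filter only through the controls. With knockout replicate 2 left out the median was -0.10, Gdf9 was the only fall and Zp1 passed as a rise (adjusted p = 0.0232).

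Of 39 listed maternal effect and egg genes, whose products wait in the egg for the early embryo, 26 were measured, 8 fell and none rose. Their median log2 fold change was -0.70, against -0.03 over the genes described, and 0.840% of all genes tested fell. The list was chosen with earlier results of these data known. H1f8, the oocyte form of linker histone H1, had 127 and 158 TPM in the controls and 33.8 and 46.1 in the knockouts (log2 fold change -1.82, SE 0.24, adjusted p = 0.00284). Npm2, a nucleoplasmin that packs and unpacks histones in the egg, had 41.9 and 39.1 TPM against 1.73 and 6.70 (log2 fold change -3.18, SE 0.59, adjusted p = 0.0198). Nlrp4f, an oocyte member of the NLRP family, had 294 and 374 TPM against 135 and 123 (log2 fold change -1.36, SE 0.24, adjusted p = 0.0163). Khdc1b, which encodes a KH-domain protein, had 21.9 and 19.2 against 8.19 and 8.99 TPM (log2 fold change -1.16, SE 0.17, adjusted p = 0.00566). In each of these 4 genes both knockout values were below both control values, as in every gene that fell. Of the 4, H1f8 passed with any library left out and had no gene length for voom. Khdc1b had an adjusted p of 0.0773 with control replicate 1 left out, Npm2 had 0.115 to 0.165 with any library but knockout replicate 2 left out, and Nlrp4f had 0.0656 to 0.152 with any one left out. The other 4 that fell, named after their values were seen, were Ooep of the subcortical maternal complex, Nlrp14, Elobl and Khdc1a. Nlrp5, the central gene of the same maternal complex, had 263 and 268 TPM in controls and 371 and 342 in knockouts (adjusted p = 0.856), and Dppa3 was also not past the test. The count of 8 became 3 or 2 with the first or second control library left out, and 2 or 5 with the first or second knockout library left out. With voom 1 of 25 fell, and 7 had an unadjusted p under 0.05. With a replicate block 1 fell, and with only the compared groups 3 fell.

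Fbxw genes encode F-box proteins with WD40 repeats, substrate adaptors of ubiquitin ligases, and a cluster of them on chromosome 9 is expressed in oocytes. Of 14 listed, 12 were measured, 6 fell and none rose, against 0.840% of all genes tested that fell. All 12 had a log2 fold change below 0, with a median of -1.46, against -0.03 over the genes described. Of these, Fbxw16 and Fbxw21 passed the TPM filter only through the controls, so their sign was fixed by the filter. The list was chosen with earlier results of these data known. Fbxw27 (chr9:109766045-109790670, minus strand) had 47.7 and 51.6 TPM in the controls and 10.6 and 4.58 in the knockouts (log2 fold change -2.65, SE 0.30, adjusted p = 0.00131). Fbxw18 had 189 and 152 against 50.8 and 80.9 TPM (adjusted p = 0.0125). The largest falls of the family were those of Fbxw16, with 11.9 and 9.95 against 0.186 and 0.1 TPM (log2 fold change -3.38, SE 0.52, adjusted p = 0.00726), and Fbxw21, with 8.83 and 11.7 against 0.137 and 0.111 TPM (log2 fold change -3.31, SE 0.51, adjusted p = 0.00726). As in every gene that fell, both knockout values were below both control values. Fbxw15 and Fbxw24, named after their values were seen, were the remaining 2. These genes are close copies of one another, so reads may be shared between them and they are not independent cases; how such reads were counted is not given in the sources used here. Fbxw27 alone kept its call without any one P1 library, and the count of 6 became 1 without either control library. With voom 0 of 12 passed, and 5 had an unadjusted p under 0.05. With a replicate block 1 fell, and with only the compared groups 3 fell.

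**Figure D2:**
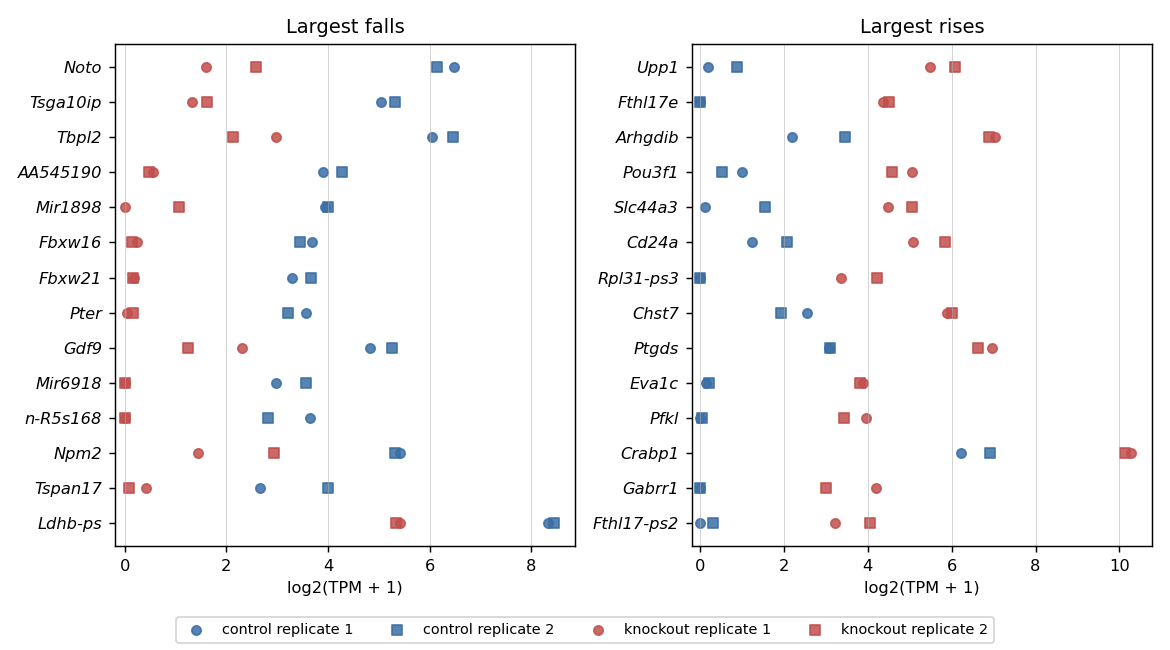
The 14 largest falls (left) and 14 largest rises (right) at P1 among named genes past the test and with a group mean of 5 TPM or more, as log2(TPM + 1) on the x axis, 1 symbol per library. Genes whose groups overlap were left out by the choice of genes. Fthl17e, Rpl31-ps3 and Gabrr1 sit at 0 in both controls.

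The promoters of these genes are shown because the genes changed in the same samples and because factors of early oocytes are known to act through short DNA letters: FIGLA with an E-protein through the E-box, and the homeobox factors NOBOX and LHX8 through TAAT-type sites. Each sequence is the 250 bases before the RefSeq start (GRCm38.p6), 5′ to 3′ on the gene's strand, with matches on either strand to the E-box CANNTG, the homeobox letters TAATTG or the related TAATTA, or the TATA box TATAAA in capitals. The first 4 genes fell, Fbxw16 and Fbxw21 are the pair of copies with the largest falls in their family, and Fthl17e and Chst7 rose. They lie at chr6:85423636-85423885 (plus strand) for Noto, chr2:24096596-24096845 (minus) for Tbpl2, chr6:115944681-115944930 (plus) for H1f8, chr5:135979855-135980104 (plus) for Zp3, chr9:109449141-109449390 (minus) for Fbxw16, chr9:109162023-109162272 (minus, the first of 2 starts) for Fbxw21, chrX:9033236-9033485 (plus) for Fthl17e and chrX:20059320-20059569 (plus) for Chst7.
Noto: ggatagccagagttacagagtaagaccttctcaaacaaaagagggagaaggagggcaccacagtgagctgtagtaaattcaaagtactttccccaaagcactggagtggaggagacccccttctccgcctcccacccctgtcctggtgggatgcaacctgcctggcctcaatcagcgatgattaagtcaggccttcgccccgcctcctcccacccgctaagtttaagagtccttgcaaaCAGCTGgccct
Tbpl2: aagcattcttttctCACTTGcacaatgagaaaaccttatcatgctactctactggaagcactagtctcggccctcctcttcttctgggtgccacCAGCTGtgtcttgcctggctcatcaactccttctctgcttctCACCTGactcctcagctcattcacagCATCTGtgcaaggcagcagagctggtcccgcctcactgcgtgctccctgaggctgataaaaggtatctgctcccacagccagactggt
H1f8: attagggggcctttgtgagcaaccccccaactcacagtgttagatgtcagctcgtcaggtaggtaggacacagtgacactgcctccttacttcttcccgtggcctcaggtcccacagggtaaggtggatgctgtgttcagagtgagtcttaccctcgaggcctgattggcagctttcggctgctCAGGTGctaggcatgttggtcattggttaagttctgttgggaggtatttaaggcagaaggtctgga
Zp3: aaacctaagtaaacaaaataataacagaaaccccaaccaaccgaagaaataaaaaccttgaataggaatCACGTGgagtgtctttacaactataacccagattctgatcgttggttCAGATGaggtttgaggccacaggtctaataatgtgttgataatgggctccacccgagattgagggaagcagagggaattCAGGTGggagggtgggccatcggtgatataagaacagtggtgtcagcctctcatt
Fbxw16: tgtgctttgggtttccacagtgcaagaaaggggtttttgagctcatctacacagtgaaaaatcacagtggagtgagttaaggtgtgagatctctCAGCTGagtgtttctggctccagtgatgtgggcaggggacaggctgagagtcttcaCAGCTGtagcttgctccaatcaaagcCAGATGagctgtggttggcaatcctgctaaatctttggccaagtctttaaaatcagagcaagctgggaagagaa
Fbxw21: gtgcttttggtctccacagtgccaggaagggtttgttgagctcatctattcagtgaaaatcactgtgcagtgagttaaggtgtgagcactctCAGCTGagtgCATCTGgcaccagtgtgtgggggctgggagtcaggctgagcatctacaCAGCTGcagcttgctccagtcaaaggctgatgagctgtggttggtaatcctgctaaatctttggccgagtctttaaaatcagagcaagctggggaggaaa
Fthl17e: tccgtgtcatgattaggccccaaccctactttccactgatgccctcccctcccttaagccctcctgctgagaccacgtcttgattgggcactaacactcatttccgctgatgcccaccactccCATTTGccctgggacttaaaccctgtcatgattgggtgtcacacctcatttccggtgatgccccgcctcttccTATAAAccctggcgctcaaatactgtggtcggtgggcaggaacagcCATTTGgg
Chst7: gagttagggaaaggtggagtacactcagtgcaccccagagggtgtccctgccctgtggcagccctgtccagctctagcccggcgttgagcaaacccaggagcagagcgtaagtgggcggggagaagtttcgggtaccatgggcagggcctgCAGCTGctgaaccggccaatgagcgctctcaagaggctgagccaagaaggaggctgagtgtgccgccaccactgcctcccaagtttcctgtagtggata

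The 8 genes were picked by hand among those past the test, and H1f8 and Zp3 are not among the 14 largest falls. Of the 14 largest rises and 14 largest falls, 18 of 28 had a window. All 8 windows held an E-box, with 4 in Tbpl2, 3 each in Zp3, Fbxw16 and Fbxw21, 2 in Fthl17e and 1 each in Noto, H1f8 and Chst7. The TATA box letters stood in Fthl17e alone, and neither homeobox motif was in any of the 8. Fbxw16 and Fbxw21 shared 82 of the 90 bases next to their starts. An E-box is common in windows of this length: 66.0% of all 27025 promoters held one, as did 57.5% of the 9578 described genes with a window, 69.6% of the 79 that fell and 68.0% of the 97 that rose. The TATA box letters were in 13.0% of all promoters, 6.73% of those of the genes described, 5.06% of those that fell and 10.3% of those that rose. The letters TAATTG were in 7.34% of all promoters, 4.47% of the genes described, 5.06% of those that fell and 4.12% of those that rose, and TAATTA in 4.90%, 2.62%, 6.33% and 3.09%. These are counts of letters in a window and say nothing about binding.

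Of 17 listed oocyte transcription factors, 13 were measured and 4 were at 0 in all 4 libraries. Tbpl2 fell and Sub1, a general coactivator, rose, and the median log2 fold change was 0.11, or -0.01 to 0.26 with 1 library left out. Among all genes tested, 0.840% fell and 0.860% rose. Figla, the basic helix-loop-helix factor that activates the zona genes, had 4786 and 4588 TPM in controls and 3665 and 3719 in knockouts (log2 fold change -0.34, adjusted p = 0.727). Nobox had 130 and 139 against 175 and 183 TPM (adjusted p = 0.650), and Lhx8 and Sohlh1 had overlapping groups. Pou5f1 had 25.5 and 38.7 against 12.5 and 12.2 TPM (adjusted p = 0.604). Sub1 had 4047 and 3707 against 4843 and 4880 TPM (log2 fold change 0.33, SE 0.06, adjusted p = 0.0192), a small change that did not pass under median centring (adjusted p = 0.897) or without any one library (0.0543 to 0.172), but did with voom. In the list of 18 genes that control the reserve and its growth, such as Kit, Mtor and the PI3K subunits, all were measured and none passed by limma, none had an unadjusted p under 0.05, and none passed with voom. Kit had 82.8 and 119.2 TPM in controls and 114.3 and 82.2 in knockouts, a full overlap.

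Among other germ cell functions, the piRNA pathway, which silences transposons, had 23 of 25 genes measured with 1 fall. For this and the next list, the shares over all genes tested were 0.840% lower and 0.860% higher. Gtsf1, a zinc finger partner of PIWI proteins, had 3778 and 3720 TPM in controls and 1996 and 1835 in knockouts (log2 fold change -0.97, SE 0.11, adjusted p = 0.00115), and the call held without any one library. Stk31 had 287 and 313 against 157 and 172 TPM (adjusted p = 0.0719). In the list of egg surface and fertilization genes, all 12 were measured, 8 had a log2 fold change above 0 and the median was 0.31. Cd24a, described with the large rises, rose and Cd9 fell. Cd9, the egg tetraspanin needed for fusion with sperm, went from 805 and 732 TPM to 299 and 328 TPM (log2 fold change -1.29, SE 0.27, adjusted p = 0.0373), a call that ended without any one library (adjusted p of 0.107 to 0.266). Ldhb-ps, a pseudogene of the lactate dehydrogenase B gene, had 320 and 348 against 41.6 and 39.5 TPM (adjusted p = 0.00116). Its parent Ldhb, named after its values were seen, had 3387 and 3880 against 1747 and 1727 TPM (adjusted p = 0.0454), and reads of the pair may be shared. Mir1898 and Mir6918, hairpin loci inside Zfr and Nipsnap1, and n-R5s168, a 5S rRNA-like locus, were also among the largest falls; these are reads over the loci, not measurements of mature miRNAs.

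The large rises started from different control levels, from under 1 TPM in Upp1, Pou3f1 and Eva1c to 73.9 and 120.1 TPM in Crabp1. Upp1, which encodes a uridine-cleaving enzyme, had 0.135 and 0.831 TPM in the controls and 43.8 and 66.6 in the knockouts (log2 fold change 5.26, SE 0.95, adjusted p = 0.0169), but no call remained without any one library (adjusted p of 0.0666 to 0.171). Pou3f1, a POU-homeobox factor of epiblast and neural lineages, had 0.999 and 0.423 TPM against 32.3 and 23.0, a 38.9-fold higher mean (log2 fold change 4.07, SE 0.58, adjusted p = 0.00478). Crabp1, which binds retinoic acid in the cytoplasm, went from 73.9 and 120.1 TPM to 1238 and 1122 TPM, a 12.2-fold higher mean (log2 fold change 3.63, SE 0.57, adjusted p = 0.00793). Chst7, a sulfotransferase gene, had 4.81 and 2.78 against 58.4 and 63.8 TPM (log2 fold change 3.73, SE 0.44, adjusted p = 0.00149). Ptgds, a prostaglandin D synthase gene, had 7.40 and 7.52 against 122.6 and 98.2 TPM (log2 fold change 3.71, SE 0.42, adjusted p = 0.00131). Eva1c had 0.105 and 0.165 against 13.8 and 13.1 TPM (log2 fold change 3.67, SE 0.48, adjusted p = 0.00285). In all of these genes both knockout values were above both control values, as the choice of genes required. The groups were apart in 47.5% of the genes described. Chst7, Ptgds and Eva1c stayed past the test without any one library; Pou3f1 had an adjusted p of 0.0565 with control replicate 2 left out. Crabp1 had 0.108 with control replicate 1 left out and 0.0556 with knockout replicate 1 left out.

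The other large rises were of mixed kinds. Arhgdib, an inhibitor of small GTPase cycling, had 3.57 and 9.98 TPM in controls and 129.7 and 117.9 in knockouts (adjusted p = 0.0211). Slc44a3, a choline transporter-like gene, had 0.0787 and 1.93 against 21.5 and 32.1 TPM (adjusted p = 0.0163). Cd24a, a small surface glycoprotein, had 1.34 and 3.21 against 32.7 and 55.9 TPM (adjusted p = 0.00450). Pfkl, a phosphofructokinase of glycolysis, had 0 and 0.0375 against 14.4 and 9.76 TPM (adjusted p = 0.0248), and Gabrr1, a GABA receptor subunit, was listed at 0 in both controls and had 17.5 and 7.02 TPM in the knockouts (adjusted p = 0.00813). The knockouts were above the controls in both libraries for each of them, as the choice of genes required. Leaving out control replicate 1 ended the calls of all 5 (adjusted p of 0.0773 to 0.230). Without control replicate 2 those of Arhgdib, Pfkl and Gabrr1 ended (0.0641, 0.149 and 0.0728), without knockout replicate 1 those of all but Cd24a (0.0601 to 0.131), and without knockout replicate 2 those of Arhgdib, Slc44a3 and Pfkl (0.0859, 0.0925 and 0.0748).

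Germline gene families on the X chromosome, among them Fthl17, Bex, Rhox, Xlr and Nxf, were mostly higher in the knockout: 37 of 47 were measured, 3 rose, none fell, and 33 had a log2 fold change above 0, against 7190 of the 14962 genes described. The list's median was 1.00, against -0.03, and 0.860% of all genes tested rose. Fthl17e and Nxf3, at 0 in both controls, passed the TPM filter only through the knockouts. Their sign was therefore fixed by the filter, and the numbers above include them. The list was chosen with earlier results of these data known. Fthl17e, a ferritin heavy chain-like gene (chrX:9033493-9034333, plus strand), was listed at 0 in both controls and had 19.4 and 21.7 TPM in the knockouts (log2 fold change 4.43, SE 0.69, adjusted p = 0.00726). Bex3, a small brain-expressed X-linked gene, went from 121.7 and 135.8 TPM to 486.2 and 474.5 TPM (log2 fold change 1.89, SE 0.30, adjusted p = 0.0076). Nxf3, a nuclear RNA export family gene, was at 0 in both controls and at 3.74 and 3.11 TPM in the knockouts (log2 fold change 2.14, SE 0.28, adjusted p = 0.00284). Fthl17f had 0.939 and 3.55 against 16.4 and 26.9 TPM (adjusted p = 0.136), and Taf7l, a germ cell TFIID subunit gene, had 291 and 278 against 282 and 287 TPM. The members of 1 family are copies and may share reads. Fthl17e had an adjusted p of 0.0843 and 0.0652 with the first or second control library left out, and Bex3 had 0.096 and 0.0547, and 0.0528 with knockout replicate 1 left out. The list's count of 3 was then 1 with either control or knockout replicate 1 left out, and 2 with knockout replicate 2 left out. With either knockout library left out only 36 of the 37 were tested, since Nxf3 no longer reached the filter. Over the whole X chromosome 10 of the 168 placed genes that rose (5.95%) and 6 of the 161 that fell (3.73%) were X-linked, against 4.35% of the genes described.

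Of 30 listed primordial germ cell and pluripotency genes, 15 were measured and 2 rose: Pou3f1 and Lin28a, an RNA-binding protein that blocks let-7 maturation, which had 7.07 and 14.8 TPM in controls and 47.0 and 39.5 in knockouts (log2 fold change 1.96, SE 0.38, adjusted p = 0.0249). Lin28a had an adjusted p of 0.276 with control replicate 1 left out, and of 0.135 and 0.0835 with the first or second knockout library left out. The list's median log2 fold change was 0.37, or -0.18 to 0.66 with 1 library left out, against -0.03 over the genes described. Among all genes tested, 0.840% fell and 0.860% rose. Nanog and Sox2 were under 1 TPM in all 4 libraries. Among 64 transcription factors of somatic development, 11 were measured and 48 were under 1 TPM in every P1 library; Noto fell and Tbx1 rose. Tbx1, a factor of the pharyngeal arches, had 0.0377 and 0 against 3.18 and 1.33 TPM (log2 fold change 1.62, SE 0.31, adjusted p = 0.0237), a call that ended without either control library (0.161 and 0.149). Both groups of Tbx1 values are close to the filter at 1 TPM. Of 22 genes of meiotic entry and retinoic acid, 14 were measured and Crabp1 alone passed; Stra8, the gatekeeper of meiotic entry, had 0.294 and 0.556 against 4.90 and 1.75 TPM (adjusted p = 0.791).

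**Figure D3:**
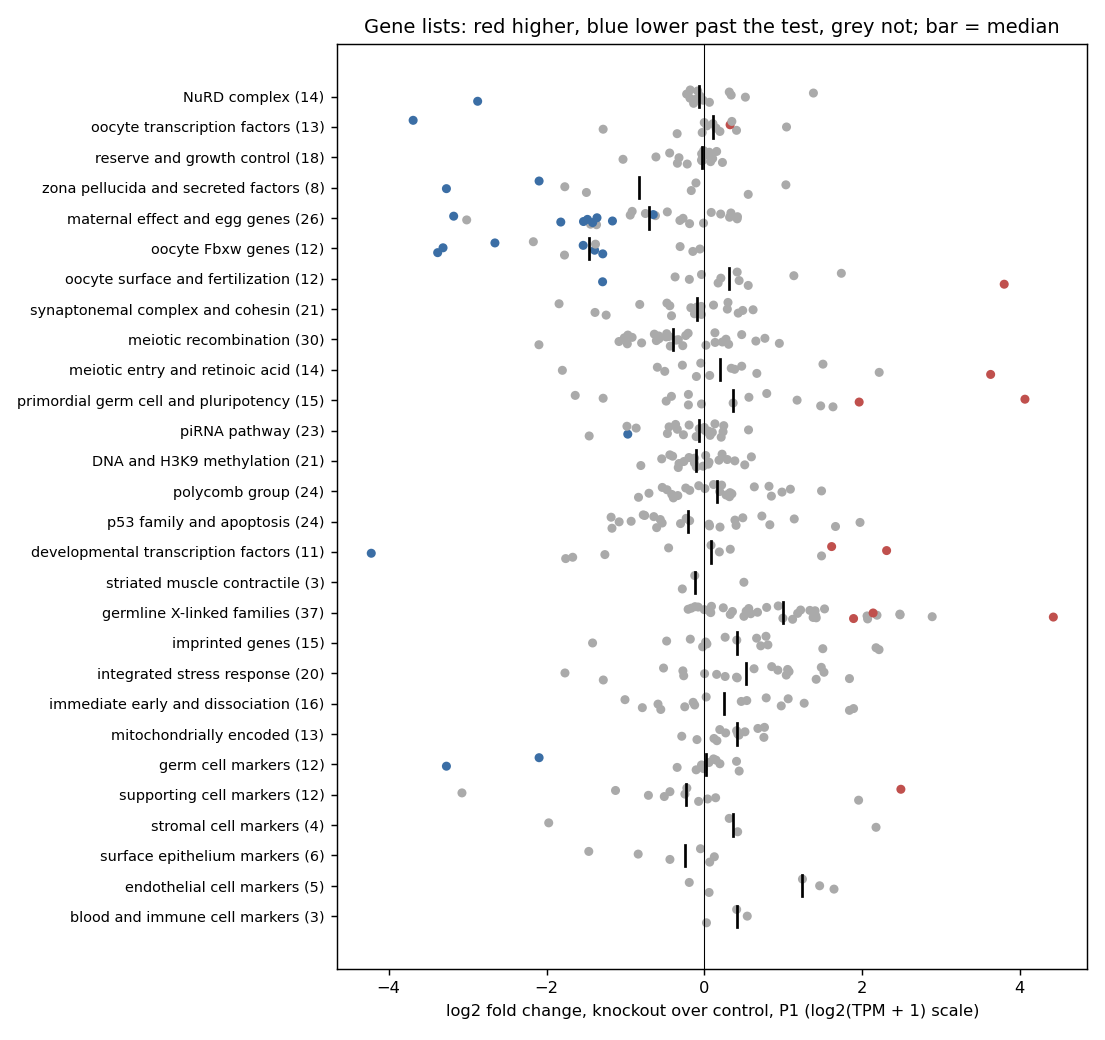
Log2 fold changes at P1 for the measured genes of each of the 28 lists (number in brackets), with red and blue for genes higher and lower past the test, grey for the others and a black bar for the median. The blue points gather in the maternal effect and Fbxw lists, whose medians are -0.70 and -1.46, and the X-linked list has a median of 1.00.

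Meiotic and chromatin programmes showed no call. Of the synaptonemal complex and cohesin genes, which build the meiotic chromosome axis, 21 of 22 were measured and none passed by limma or voom; 1 had an unadjusted p under 0.05, and Sycp3 had 5614 and 5549 TPM in controls and 5970 and 6141 in knockouts. Of 31 recombination genes, 30 were measured and none passed by either method, with 6 at an unadjusted p under 0.05 and a median log2 fold change of -0.39. Mnd1, which acts with Psmc3ip in strand exchange, had 817 and 835 against 535 and 576 TPM, without overlap (adjusted p = 0.441). None of 21 DNA and H3K9 methylation genes passed by limma or voom, and none had an unadjusted p under 0.05. None of 24 polycomb group genes passed by either method either (3 unadjusted); Kdm6b, an H3K27 demethylase gene, had 3.47 and 5.12 against 14.5 and 12.9 TPM (adjusted p = 0.0832). A p that misses the threshold with 2 libraries a group does not show that these genes were unchanged.

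Stress and growth arrest lists gave no call by limma either. None of 24 measured p53 family and apoptosis genes passed (3 unadjusted, 0 with voom); Cdkn1a, a p53 target that halts the cell cycle, had 14.9 and 21.2 TPM in controls and 73.4 and 72.3 in knockouts without overlap (log2 fold change 1.98, SE 0.61, adjusted p = 0.178). None of 20 integrated stress response genes passed (4 unadjusted; 1 of 19 was lower with voom), with a median of 0.52 that ranged from 0.12 with knockout replicate 1 left out and 0.28 with control replicate 1 left out to 0.96 and 0.98 with the others left out. None of 16 immediate early and dissociation genes passed either (1 unadjusted, 0 with voom). Of 15 measured imprinted genes none passed (4 unadjusted; 1 was higher with voom). Dlk1, a paternally expressed gene, had 19.9 and 17.5 against 104.8 and 73.9 TPM (adjusted p = 0.122), and Cdkn1c, a maternally expressed cell cycle inhibitor, had 13.7 and 13.7 against 35.9 and 46.1 TPM (adjusted p = 0.129). Only 3 of 25 striated muscle genes reached the TPM filter, and none passed the test (0 unadjusted, 0 with voom). None of the 13 mitochondrially encoded genes passed by limma (5 unadjusted; 1 was higher with voom); they made up 2.91% and 3.11% of control TPM and 3.41% and 3.67% of knockout TPM, and the part of this shift in other results was not tested.

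Markers of other ovarian cells summed to less in all 4 libraries than the germ cell markers, which summed to 51710 to 56040 TPM, most of it Dppa3. Single markers were not all so far apart. Lgals7 of the surface epithelium list had 108 and 137 TPM in controls and 118 and 149 in knockouts. The germ cell marker Kit had 82.8 and 119 TPM in controls and 114 and 82.2 in knockouts. The summed TPM of 26 supporting cell (granulosa) markers was 143 and 237 in controls and 85.7 and 159 in knockouts. The keratin genes Krt8 and Krt18 gave most of it except in knockout replicate 1, where they had 23.1 and 0.7 TPM; Amh and Fshr were at 0 in all 4 libraries, 8 markers were under 1 TPM everywhere, and 12 were measured. Among these Serpine2, a protease inhibitor gene that growing oocytes also expressed at P10, rose from 3.44 and 4.55 TPM to 26.4 and 27.5 TPM (adjusted p = 0.0445), a call that ended without any one library (0.152 to 0.307). The 16 stromal markers summed to 34.9 and 27.6 TPM in controls and 111 and 85.3 in knockouts, most of it Dlk1; 4 were measured and none passed (2 unadjusted; with voom 1 was higher and 1 lower), and Acta2 and Pdgfrb were at 0. The 10 endothelial markers summed to 9.30 and 13.0 TPM in controls and 29.8 and 29.4 in knockouts, of which Pecam1 had 7.6 and 6.4 against 22.3 and 14.3 TPM, with 5 measured and none past the test (2 unadjusted, 0 with voom). The 9 surface epithelium markers summed to 128 and 151 against 123 and 164 TPM, mostly Lgals7, with 6 measured and none past the test (1 unadjusted, 0 with voom). The 15 blood and immune markers summed to 8.73 to 16.3 TPM in the 4 libraries, with 3 measured and none past the test (0 unadjusted, 0 with voom) and Ptprc at 0. In such bulk samples fewer cells of a type and less RNA per cell cannot be told apart, and the part of these markers in the rises above was not tested.

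The annotation classes of the genes that changed are given beside those of the genes described, with no test. Protein-coding genes made up 56% of the placed genes that rose and 45.3% of those that fell, against 74.1% of the genes described, while long non-coding RNAs made up 25% and 24.2% against 9.01%. Loci of the annotation class TEC, which await experimental evidence, made up 5.95% and 9.94% against 1.78%, and their summed level was 1606 and 1579 TPM in controls and 1514 and 1748 in knockouts. Predicted or clone-based names were borne by 46% of the 176 and 49.7% of the 171, against 25.1% of the genes described. Some called genes were neighbours, a count for which no background was computed: 12 of those that rose and 8 of those that fell lay within 100 kb of another gene of the same call. Pou3f1 had the pseudogene Gm12917 beside it, Fthl17e had Fthl17-ps2, Bex3 had Tceal9, and Lncenc1, a long non-coding RNA of embryonic stem cells, had Gm5086. Among the falls, Fbxw15, Fbxw24, Fbxw18 and Fbxw27 were in 1 stretch of chromosome 9, and Khdc1a and Khdc1b were neighbours on chromosome 1. Copies, read-through and overlap on the other strand were not told apart, since strand handling is not given in the sources used here; Pou3f1, Arhgdib, Slc44a3, Eva1c, Fbxw16 and Cd9 overlap a gene on the opposite strand, and Npm2 overlaps Xpo7.

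The P10 control libraries place some of these genes in oocyte growth, and the rest were too low there to be placed. Among these libraries, none of which is shared with P1, 75 of the 171 genes that fell had at least 1 TPM in 2 libraries, and 53 of them (70.7%) were higher in growing than in non-growing oocytes, with a median difference of 1.16 in log2(TPM + 1). Among the 10463 described genes with that level 36.9% were higher in growing oocytes, with a median of -0.46, and of the 45 such genes that rose 16 (35.6%) were, with a median of -0.73. These are descriptions, with no test. Npm2 had 297 and 207 TPM in P10 control non-growing and 1815 and 2117 in growing oocytes, and Fbxw27 had 442 and 581 against 3382 and 3454 TPM. Gdf9 had 110 and 197 against 720 and 656 TPM. Crabp1 was the reverse, with 83.4 and 194.5 TPM in non-growing and 0.657 and 0.668 in growing oocytes, as did Bex3 with 164 and 341 against 1.62 and 2.34 TPM. Gtsf1 and Tsga10ip, which fell at P1, were lower in growing oocytes, so the pattern was not shared by each gene that fell.

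**Figure D4:**
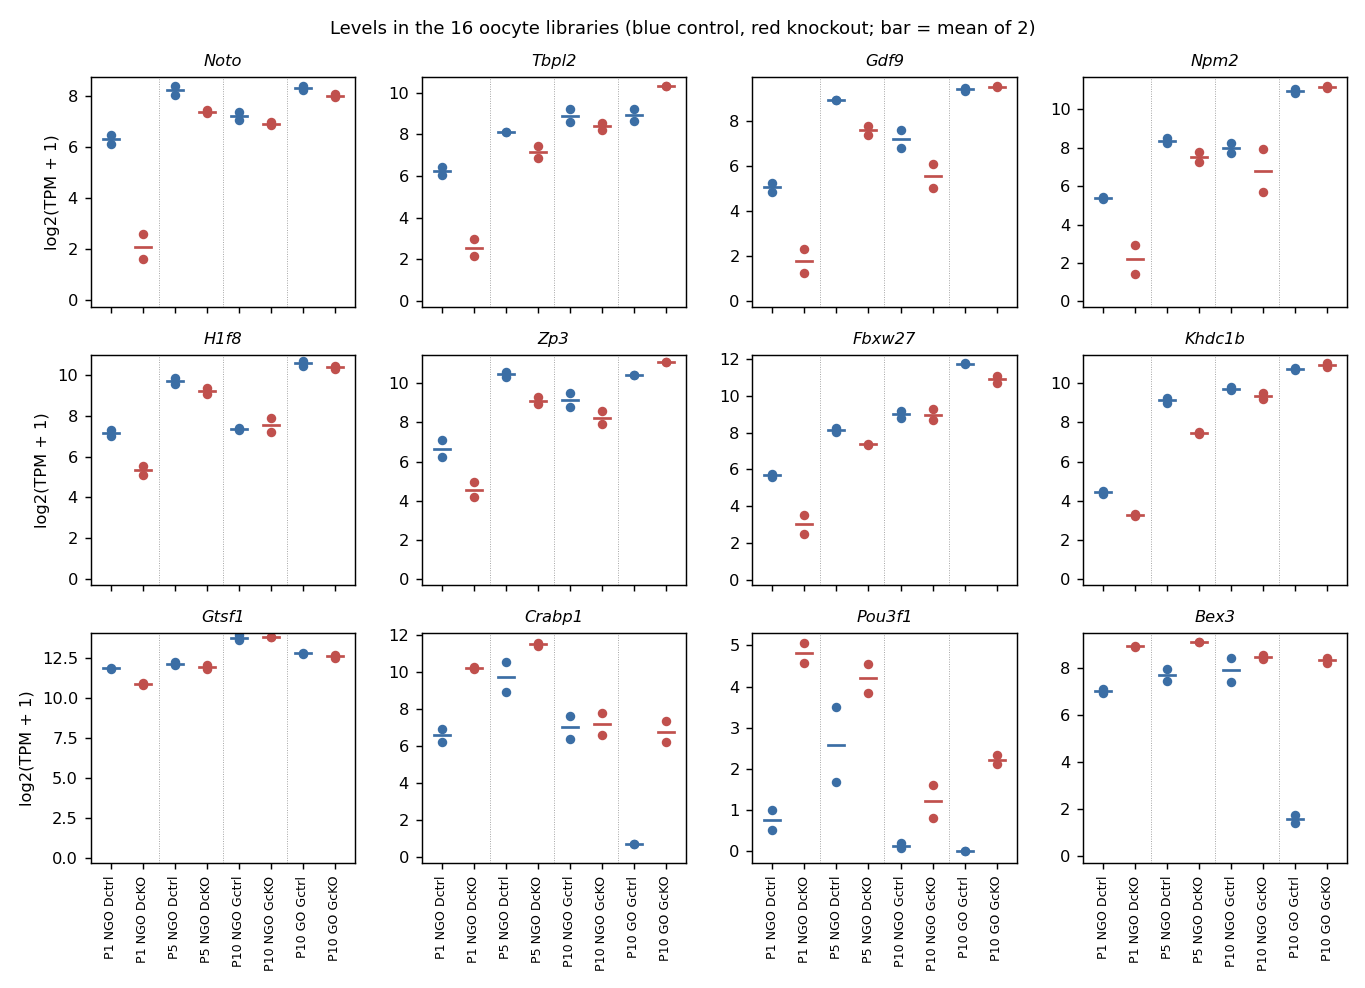
Levels of 12 genes as log2(TPM + 1) in the 16 oocyte libraries, 2 per group, with control in blue, knockout in red and a bar at the mean; NGO is non-growing and GO growing oocytes, and the P10 knockout groups, deleted with Gdf9-iCre, are shown for completeness. Noto, Tbpl2, Gdf9 and Npm2 are lowest in the P1 knockout, and Crabp1, Pou3f1 and Bex3 are higher in the P1 knockout than in the P1 control.

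At P5 the same comparison was made in other libraries. There 214 genes were higher (1.05% of those tested) and 64 lower (0.313%) in the knockout. Of the 176 genes that rose at P1, 137 had a change above 0 at P5, 29 were also past the test there in the same direction and 1 in the other, and their median P5 log2 fold change was 1.01. Of the 171 that fell, 106 had a change below 0 at P5, 14 were past the test in the same direction and 3 in the other, and the median was -0.29. The genes were chosen by their P1 test, so smaller P5 values are no measure of a change with age. Over the genes described, 59.9% had the same sign at both ages, in libraries that are not shared. Noto had 267 and 341 TPM in the P5 controls and 174 and 161 in the knockouts (adjusted p = 0.232), so the knockouts were then above the P1 controls. Gdf9 had 496 and 487 TPM in the controls of that age and 166 and 222 in the knockouts, without overlap (adjusted p = 0.155). Khdc1b had 613 and 507 against 167 and 179 TPM (log2 fold change -1.68, adjusted p = 0.00194), a fall past the main test at both ages. Its P1 call ended with voom (adjusted p = 0.629), the compared groups alone (0.121) or a replicate block (0.0628). At P5 no gene passed under the last 2 of these settings. Fthl17e had 6.31 and 0 against 26.7 and 20.3 TPM at P5 (adjusted p = 0.0464). Chd4 itself had 14.5 and 17.9 TPM at P5 in the controls and 8.28 and 4.94 in the knockouts (adjusted p = 0.351; the difference between the ages was not past the test). The P5 total of 278 became 22 with P5 control replicate 2 or P5 knockout replicate 2 left out, 104 with P5 knockout replicate 1 left out and 396 with P5 control replicate 1 left out.

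The difference between the 2 ages was tested in the same model. In 64 of the genes tested (0.313%) the knockout effect differed between P5 and P1, 44 of them among the genes described, with 30 higher and 14 lower at P5. Of the genes called at P1, 22 that fell and 13 that rose were among them. The difference reuses the P1 libraries that called these genes, so the choice favoured this overlap and nothing is drawn from it. It also favoured differences toward 0 at P5 in genes with a large P1 effect. The effect on Noto moved from -4.22 at P1 to -0.85 at P5, a difference of 3.37 (SE 0.41, adjusted p = 0.00654). Tbpl2 differed by 2.73 (SE 0.46, adjusted p = 0.0308) and Tsga10ip by 2.36 (SE 0.38, adjusted p = 0.0247), in each case toward 0 at P5. AA545190 had opposite signs at the 2 ages, with 13.9 and 18.4 TPM in P1 controls against 0.477 and 0.385 in knockouts, but 41.3 and 48.5 TPM in P5 controls against 106.0 and 90.2 in knockouts (P5 adjusted p = 0.099). Itga11, a collagen-binding integrin gene, had 0.0775 and 0.0488 TPM in P1 controls, 7.90 and 4.46 in knockouts of that age, and at most 0.461 TPM in any P5 library. Ckb, the brain creatine kinase gene, rose at P1 from 135.3 and 165.4 TPM to 528.3 and 466.7 TPM, and at P5 had 518.3 and 488.4 against 383.0 and 430.4 TPM. Gsta4, a glutathione transferase gene, rose at P1 from 125.2 and 144.9 TPM to 332.5 and 237.7 TPM and fell at P5 from 1812 and 2581 TPM to 1115 and 986 TPM. The P1 calls of Gsta4 and Ckb ended with control replicate 1 left out (adjusted p = 0.21 and 0.0773), and that of Gsta4 also with control replicate 2 or knockout replicate 1 left out (0.0881 and 0.148). The count of 64 was 2 under median centring. It was 16, 37 and 42 with P1 control replicate 1, P1 control replicate 2 or P1 knockout replicate 2 left out, and 34 with P5 control replicate 2 left out.

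**Figure D5:**
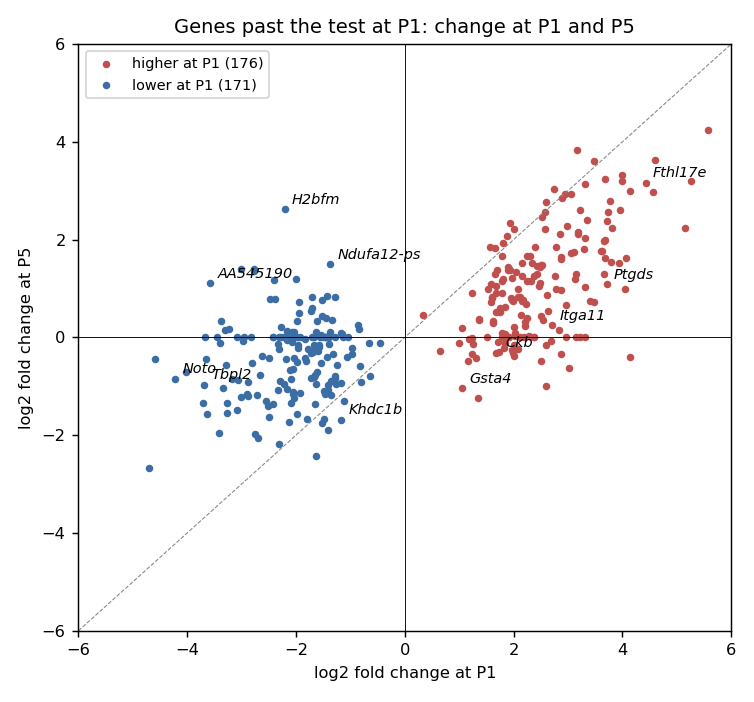
Log2 fold change of knockout over control at P1 (x axis) and P5 (y axis) for the 347 described genes past the test at P1, with red for those that rose and blue for those that fell at P1; the dashed line marks equal change. Of the red points 137 of 176 lie above 0 at P5 and of the blue points 106 of 171 lie below 0, with H2bfm, Ndufa12-ps and AA545190 above it.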

How the data were processed

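RNA-seq was done on non-growing oocytes; the 20 libraries of the series include 16 of oocytes in 8 groups of 2. Per the submitters' processing notes, reads were processed with Trimmomatic 0.39, STAR 2.5.4b, SAMtools 1.9 and featureCounts 2.0.1 on GRCm38. The authors deposited TPM values per gene; annotation, strand setting and the TPM step are not given in the sources used here. Positions and lengths came from GENCODE M21 by symbol, and promoters from RefSeq (GRCm38.p6). Multiplying TPM by length gave whole reads (within 0.05) for 98.68% to 99.22% of values up to about 20 reads, and so the depth.

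Genes with at least 1 TPM in 2 oocyte libraries (20470) were fitted as log2(TPM + 1), which understates changes of low genes, by group means over the 16 libraries in limma 3.58.1 (R 4.3.3, mean-variance trend, 8 residual degrees of freedom). Contrasts were knockout minus control at P1 and P5 and their difference, tested two-sided at an adjusted p of 0.05 (Benjamini-Hochberg, all genes tested). The procedure was tested on simulated data. Where 1 library of a pair is left out, the lone one is assumed to vary like the other groups. Called genes were named by a rule: up to 14 largest rises and falls whose groups did not overlap, whose higher group mean reached 5 TPM and whose symbols are not predicted names, up to 4 genes per list by smallest p, and up to 5 each way for the difference. The genes and the 28 lists were chosen with earlier results of these data known. Alternatives were a pseudocount of 0.1, a filter at 5 TPM or none, the compared groups alone, a replicate block, quantile normalization, median centring, voom on recovered reads (19833 genes with a length, trend span 0.1) and each library left out. One gene past the test at P1 is not reported here.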

Additional observations from a re-analysis of the deposited data

Results flagged for a closer look

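The knockout effect differed between P5 and P1, by the test of the difference itself in limma with an adjusted p under 0.05, in 9 genes named by size and in Tbpl2 and Tsga10ip, which are described above. Positive values mean a higher knockout-over-control ratio at P5. The difference was 3.37 for Noto (SE 0.41, adjusted p = 0.00654) and 4.68 for AA545190 (SE 0.41, adjusted p = 0.002).

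H2bfm, an X-linked H2B-family histone gene, differed by 4.83 (SE 0.68, adjusted p = 0.0131). It had 6.68 and 2.5 TPM in P1 controls against 0 and 0.257 in knockouts, and 1.26 and 0 TPM at P5 against 5.96 and 11.3, so the order of the groups was opposite at the 2 ages. Defb19, a beta-defensin gene, differed by 4.82 (SE 0.80, adjusted p = 0.0288), with 1.01 and 4.45 against 0 and 0 TPM at P1 (not past the test) and 0.561 and 0 against 11.2 and 8.28 TPM at P5. Ndufa12-ps, a pseudogene that may share reads with its parent gene, differed by 2.88 (SE 0.43, adjusted p = 0.0172). The P1 call of H2bfm held under none of the 12 alternatives run (adjusted p of 0.0516 to 0.357). That of Ndufa12-ps ended with any 1 of the 4 libraries left out (0.121 to 0.337), with no filter (0.0569), a replicate block (0.138) or median centring (0.152).

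The difference was negative for Itga11 (-2.46, SE 0.43, adjusted p = 0.0409), Gsta4 (-2.10, SE 0.29, adjusted p = 0.0111), Ckb (-2.03, SE 0.35, adjusted p = 0.0333) and Eef1a1, the main translation elongation factor gene (-0.73, SE 0.13, adjusted p = 0.0467). Eef1a1 had 1269 and 1453 against 1607 and 1531 TPM at P1, where it was not past the test, and 1758 and 1809 against 1240 and 1241 TPM at P5. For these 9 genes the difference under other settings was not computed gene by gene; the counts below cover all genes tested.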

How the results depend on the processing

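With 2 libraries a group and a spread that rests on 16 libraries, the calls near the threshold depend on single libraries, and genes near 1 TPM on the pseudocount and filter. No named call changed direction under any alternative run. For a changed pseudocount or filter, or a library left out, this was fixed in advance. In each called gene the 2 knockout values lay on one side of the 2 control values. At P1, the 348 called genes became 190 with a filter at 5 TPM (all of them among the 348), 204 under median centring and 608 with voom (224 of them among the 348), and ranged from 71 to 235 with 1 library left out. A pseudocount of 0.1 (366), no filter (467), the compared groups alone (262) and quantile normalization (346) stayed within 1.5 times, with 261, 292, 116 and 281 genes in common with the 348. The share of calls that were higher was 50.6%; a pseudocount of 0.1 made it 36.3% and voom 33.7%. Median centring moved the median log2 fold change of the genes described from -0.03 to -0.13. The 278 genes at P5 became 56 with a filter at 5 TPM, 449 with no filter, 0 with only the compared groups (3437 at an unadjusted p under 0.05), 56 under median centring and 618 with voom, and 22 to 396 with 1 library left out. The 64 genes whose effect differed between ages became 139 with a pseudocount of 0.1, 16 with a filter at 5 TPM, 318 with no filter, 10 with only the compared groups, 2 under median centring and 358 with voom, and 16 to 90 with 1 library left out. Voom was run with a trend span of 0.1, chosen after its default trend fell below 0 at high counts; with the default span, added after seeing the data, it gave 400 genes at P1, 401 at P5 and 166 for the difference. The cause of these shifts was not tested.

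The replicate numbers are shared by the groups in the labels, but same-numbered libraries did not deviate together (correlation of deviations -0.0096). With a replicate block the counts were 72 at P1 (70 of them among the 348), 0 at P5 (2303 at an unadjusted p under 0.05) and 0 for the difference (1448 at an unadjusted p under 0.05).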
